A study of Mus musculus with 54 samples.

Results

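Vav2, Plekho1, Cyp2c55, Ptprt, Lgsn and 6430573F11Rik are 6 of the 23284 genes in the count tables of a mouse study of CTCF and BORIS in the testis. They were selected on their counts in WT and BORIS KO spermatocytes, as genes with the clearest changes there. No numerical threshold was set, and the differences in those libraries are therefore given as a description with no test. All 6 symbols were found in both tables and each matched 1 annotated gene.

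RNA was measured in whole testis and in sorted round spermatids and spermatocytes from C57BL/6 mice 3 months old. There were 4 genotypes. WT mice had both copies of each gene (Ctcf+/+Boris+/+). CTCF HET mice lacked 1 allele of Ctcf (Ctcf+/-Boris+/+), and BORIS KO mice lacked Boris (Ctcf+/+Boris-/-). The compound mutant CM, which the labels call DKO, combined these losses (Ctcf+/-Boris-/-). There were 3 libraries for each genotype and preparation, except 2 for WT spermatocytes, which makes 35 libraries in all. Each germ cell preparation pooled 4 mice, and the sorted cells came from centrifugal elutriation followed by sorting on a DNA dye. The labels do not say whether the sorted replicates were separate preparations, so for these the p-values measure the spread between the libraries, which may be technical.

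Total counts ranged from 10437683 to 42055813 in whole testis, from 47740650 to 98545423 in round spermatids and from 53337530 to 88946702 in spermatocytes. Summed spermatocyte markers (5 of 6 in the table) were at 3120 to 5840 CPM (counts scaled to library size, within each table) in the spermatocyte libraries and at 985 to 2080 in round spermatids. Round spermatid markers were at 25.9 to 101 and at 370 to 1140, so each marker sum was higher in the sort of its label. Within round spermatid libraries the spermatocyte and round spermatid sums were at 1370 to 1530 and 896 to 1070 in WT. They were at 1160 to 1300 and 654 to 700 in CTCF HET, 985 to 1030 and 582 to 1140 in BORIS KO, and 1540 to 2080 and 370 to 583 in CM. Whether spermatocytes remained in these libraries was not tested. Ctcf was lower in whole testis with 1 Ctcf allele, at 27 ± 3.75 CPM in CTCF HET and 25.9 ± 1.35 in CM against 42.7 ± 2.17 in WT (mean ± SD, n = 3 each). It was not lower in the sorted libraries labelled CM, at 171, 45.5 and 38.4 CPM in round spermatids and 89.3, 34.8 and 36.4 in spermatocytes, against 28.4 to 48 and 33.6 to 36 in WT. In CTCF HET it was at 21.8 to 33.1 and 29.9 to 49.5. Replicate 1 of the CM round spermatids stood apart from the others. Ctcfl, the gene for BORIS, had 149 to 184 counts in BORIS KO and 174 to 252 in WT round spermatids. In spermatocytes it had 6 and 5 counts in WT, 1, 8 and 0 in BORIS KO, 0, 94 and 0 in CTCF HET, and 0, 29 and 0 in CM, so it was near 0 in WT and highest in 1 CTCF HET and 1 CM library. Counts are per gene, so reads outside a deleted part check nothing.

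CTCF is a zinc finger protein that binds insulators and many promoters in all cells. BORIS is its germline paralog, with a nearly identical DNA-binding domain, made in male germ cells. Spermatocytes are the cells in meiosis, and round spermatids are their haploid products. The 6 genes differ in what they do. 6430573F11Rik (also named Trmt9b) is a relative of the methyltransferase Alkbh8, which modifies wobble uridines of tRNA. Vav2 is a guanine nucleotide exchange factor that acts downstream of receptors. Plekho1 (CKIP-1) is a pleckstrin homology protein that binds casein kinase 2. Ptprt is a receptor tyrosine phosphatase of adhesion contacts that acts on Stat3 and paxillin. Cyp2c55 is a cytochrome P450 that oxidizes fatty acids, and Lgsn (lengsin) is a protein of the glutamine synthetase fold known from the lens.

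None of the 6 loci held a listed WT BORIS peak within 10 kb, whereas 30.8% of 21709 annotated genes did. The nearest BORIS peak lay 30.8 kb from 6430573F11Rik, 58.6 kb from Plekho1, 76.0 kb from Cyp2c55, 135.8 kb from Vav2, 337.5 kb from Ptprt and 2465.8 kb from Lgsn, and the median over all genes was 44.2 kb. A WT CTCF peak within 2 kb of the gene was listed for 2 of the 6, Vav2 and Ptprt, against 50% of genes. The ChIP was done on germ cells isolated from whole testes, so the peaks are not those of sorted spermatocytes or round spermatids. There was 1 list per antibody and genotype, so these peaks have no replicate error. Each H3K4me3 list came from 1 library. How heights were scaled is not given in the sources used here, so a peak is placed by its percentile within its own list.

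Vav2 (chr2:27117624-27282553 in mm9, minus strand) and Ptprt (chr2:161347726-162486883, minus strand) each had a high CTCF peak near the start. At Vav2 its WT summit lay 1.2 kb before the start. The height was 2832 in WT, at or above 92.2% of WT CTCF peaks, and 484 in CM, at or above 75.7% of CM peaks. At Ptprt the WT summit lay 1.9 kb inside the gene, and the height was 3041 in WT (93.8 percentile) and 532 in CM (81.6 percentile). The 200 bases around each WT summit are printed, on the strand of the gene. They were chosen because only these WT CTCF peaks lie within 2 kb of a start among the 6 genes. Capitals mark a match to the 12-letter core of the CTCF motif, searched on both strands with at most 1 mismatch.
Vav2 WT CTCF peak, chr2:27283701-27283900, minus strand: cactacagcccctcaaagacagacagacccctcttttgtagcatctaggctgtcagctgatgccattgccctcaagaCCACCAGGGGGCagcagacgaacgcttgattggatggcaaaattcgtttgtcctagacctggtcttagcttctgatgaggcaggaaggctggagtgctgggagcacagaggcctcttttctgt
Ptprt WT CTCF peak, chr2:162484869-162485068, minus strand: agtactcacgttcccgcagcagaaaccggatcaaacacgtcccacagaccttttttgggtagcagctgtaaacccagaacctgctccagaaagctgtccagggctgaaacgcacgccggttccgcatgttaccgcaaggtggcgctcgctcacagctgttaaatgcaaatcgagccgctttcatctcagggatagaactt
The Vav2 sequence held the core with 0 mismatches from base 78. The Ptprt sequence held no match with at most 1 mismatch, and a weaker match was not searched for. Of the windows of the same length at all 34625 WT CTCF peaks, 56.3% held a match, and 74% did at the 21525 CM peaks.

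The promoters differed in their content of CG pairs. Over the 250 bases before the start, Plekho1 had 42 CG pairs, Ptprt 39, Vav2 22 and 6430573F11Rik 9, while Cyp2c55 and Lgsn had 0. The median over all promoters was 9, so 6430573F11Rik lay at the median, Vav2, Plekho1 and Ptprt above it and the other two below it. None of the 6 held the CTCF core, which 4.24% of 21217 promoters did. Of these, 2 of the CG-containing promoters and 1 without CG are printed in the direction of transcription, with CG in capitals, to show this difference.
Plekho1 promoter, chr3:95799925-95800174, minus strand: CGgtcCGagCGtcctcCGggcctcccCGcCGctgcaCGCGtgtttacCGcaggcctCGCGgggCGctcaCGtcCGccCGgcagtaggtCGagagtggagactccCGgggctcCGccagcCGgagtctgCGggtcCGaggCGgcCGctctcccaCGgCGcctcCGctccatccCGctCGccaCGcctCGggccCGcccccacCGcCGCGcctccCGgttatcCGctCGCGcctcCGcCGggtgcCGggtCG
6430573F11Rik promoter, chr8:37520352-37520601, plus strand: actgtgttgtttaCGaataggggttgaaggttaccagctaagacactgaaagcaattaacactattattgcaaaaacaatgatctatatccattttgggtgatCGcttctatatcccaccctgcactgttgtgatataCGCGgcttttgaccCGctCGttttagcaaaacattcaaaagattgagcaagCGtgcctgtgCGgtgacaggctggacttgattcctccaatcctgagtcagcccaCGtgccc
Cyp2c55 promoter, chr19:39081259-39081508, plus strand: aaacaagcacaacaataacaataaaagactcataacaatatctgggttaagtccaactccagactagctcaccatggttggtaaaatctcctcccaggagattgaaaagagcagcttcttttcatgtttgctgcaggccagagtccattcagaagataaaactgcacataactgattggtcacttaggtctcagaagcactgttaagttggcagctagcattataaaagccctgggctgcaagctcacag
6430573F11Rik, Vav2 and Plekho1 each had an H3K4me3 peak within 2 kb of the start in WT and in CM, a mark of active promoters that 51.2% and 55.6% of genes carried there. At 6430573F11Rik the score was 181.41 in WT (70.6 percentile of its list) and 90.77 in CM (27.2 percentile). At Vav2 it was 280.75 (79.9 percentile) and 447.12 (73.5 percentile), and the Plekho1 scores are given below. Ptprt, Cyp2c55 and Lgsn had none within 2 kb of the start in either genotype.

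Inside Vav2, 1 H3K4me3 peak 45.5 kb from the start (score 63.11, 15.8 percentile of the WT list) was listed only in WT. Another, 36.2 kb from the start (146.86, 43.4 percentile of the CM list), was listed only in CM. A CTCF peak 13.1 kb inside Vav2, of height 126, had no counterpart in CM. Such unshared peaks were common over all genes, with 16.4% carrying a CM-only and 23.1% a WT-only H3K4me3 peak, and 34.6% a WT-only CTCF peak. Ptprt held 6 WT and 3 CM CTCF peaks, and 8 low H3K4me3 peaks in WT (53.89 to 81.39, 5.08 to 38.4 percentile) against 0 in CM. The WT H3K4me3 list held 34347 peaks with a median score of 97.5, and the CM list 20432 with a median of 185. Ptprt spans 1139158 bp, and the shares over all genes are not matched for length. The part of list size and gene length in these counts was not tested. At Plekho1 (chr3:95792352-95799924, minus strand), 2 WT H3K4me3 peaks (71.48 and 85.87, 27.6 and 42.4 percentile) lay where CM had 1 broader peak (256.30, 59.2 percentile).

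6430573F11Rik (chr8:37520602-37577374, plus strand) was the only one of the 6 with a Pol2 peak, listed in CM alone, 36.1 kb inside the gene with a score of 84.90, and 28% of all genes had a CM-only Pol2 peak.
Cyp2c55 (chr19:39081509-39117183, plus strand) had no listed peak of any kind within 2 kb. Lgsn (chr1:31233251-31261501, plus strand) had 1 WT H3K4me3 peak (52.66) just past its end. The map of the loci shows these positions.

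**Figure D1:**
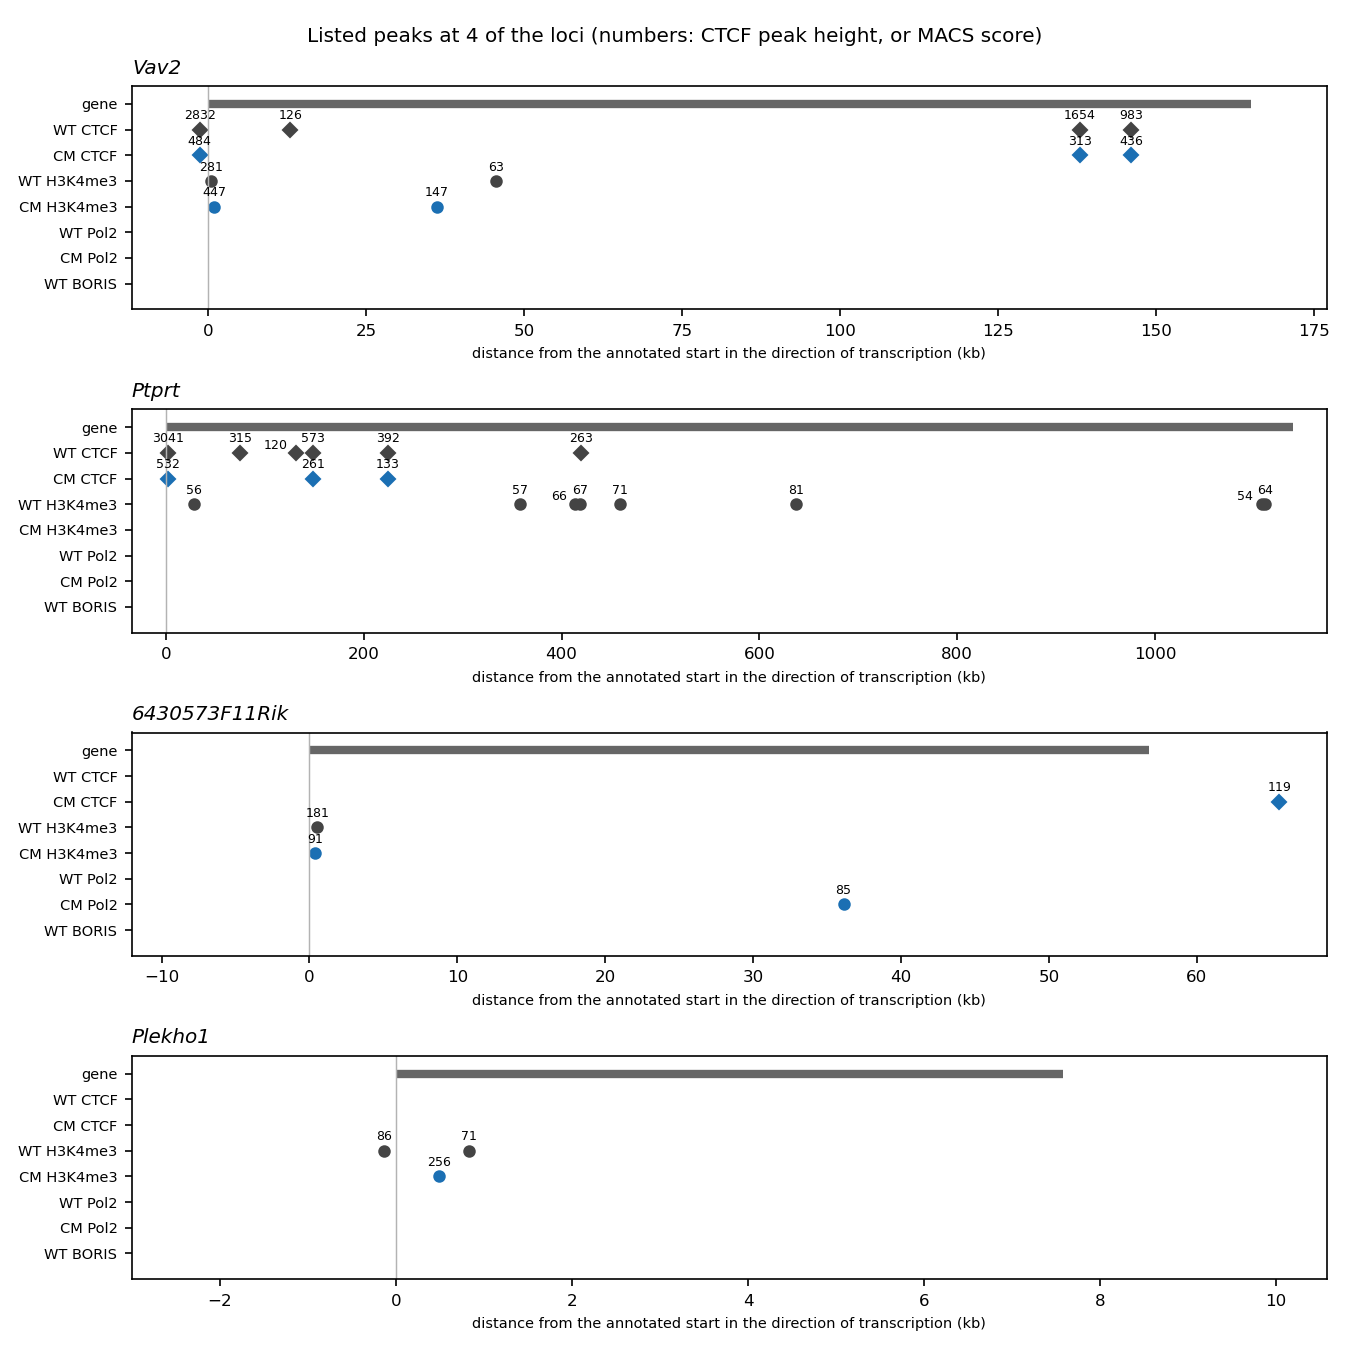
Listed peaks at Vav2, Ptprt, 6430573F11Rik and Plekho1 by distance from the annotated start (kb, in the direction of transcription), with 1 line per peak list. The numbers are CTCF peak heights (diamonds) or MACS scores (circles), rounded to whole numbers, and their scales were not matched between lists. High CTCF peaks sit at the starts of Vav2 (2832 in WT) and Ptprt (3041 in WT), and the BORIS line is empty at all 4 genes.

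In the spermatocytes that chose the genes, 6430573F11Rik went from almost no reads to a low level without BORIS. It had 2 and 1 counts in the WT libraries and 194, 263 and 197 in BORIS KO, a ratio of 141 after scaling, with an exact 95% interval of 48.1 to 686 that covers counting error only. Vav2 was at 28.8 and 31.1 CPM in WT and at 112, 142 and 138 in BORIS KO, and Plekho1 at 6.52 and 6.67 against 17.7, 19 and 17.1. No library of either group overlapped the other for these genes. How many of all genes separated in this way was not counted in any comparison, so overlap is given throughout as a description only.

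The other 3 genes were lower without BORIS. Ptprt was at 4.97 and 6.84 CPM in WT spermatocytes and at 0.126, 0.165 and 0.162 in BORIS KO, so that 9 to 15 counts remained per library. Cyp2c55 was at 48.9 and 46.7 against 11, 12.1 and 12.6 CPM, and Lgsn at 16.8 and 14.5 against 3.8, 3.61 and 3.65. The fitted log2 fold changes were 7.03 ± 0.31 (SE) for 6430573F11Rik, 2.12 ± 0.1 for Vav2, 1.44 ± 0.09 for Plekho1, -5.27 ± 0.22 for Ptprt, -2.01 ± 0.07 for Cyp2c55 and -2.09 ± 0.1 for Lgsn. Genes past an adjusted p of 0.05 and a fold change of 2, the call used throughout, made up 8.43% of the 14338 genes tested in this contrast, and nothing is read from this for genes it chose. In these bulk samples, fewer cells of a type and less RNA per cell cannot be told apart.

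Per kilobase of exon, the order of the genes changed with the genotype. In WT spermatocytes the level ran from Cyp2c55 (24 ± 0.759 RPKM, mean ± SD, n = 2) through Lgsn (8.4 ± 0.85), Vav2 (4.33 ± 0.24) and Plekho1 (3.04 ± 0.0495) to Ptprt (0.468 ± 0.105) and 6430573F11Rik (0.00485). In BORIS KO it ran from Vav2 (18.9 ± 2.31 RPKM, n = 3) through Plekho1 (8.27 ± 0.449), Cyp2c55 (5.96 ± 0.4), Lgsn (1.98 ± 0.0535) and 6430573F11Rik (0.682 ± 0.0239) to Ptprt (0.012 ± 0.0017). The genes were chosen on these libraries, so the change of order is a description only. Each level lay more than its SD from the next.

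**Figure D2:**
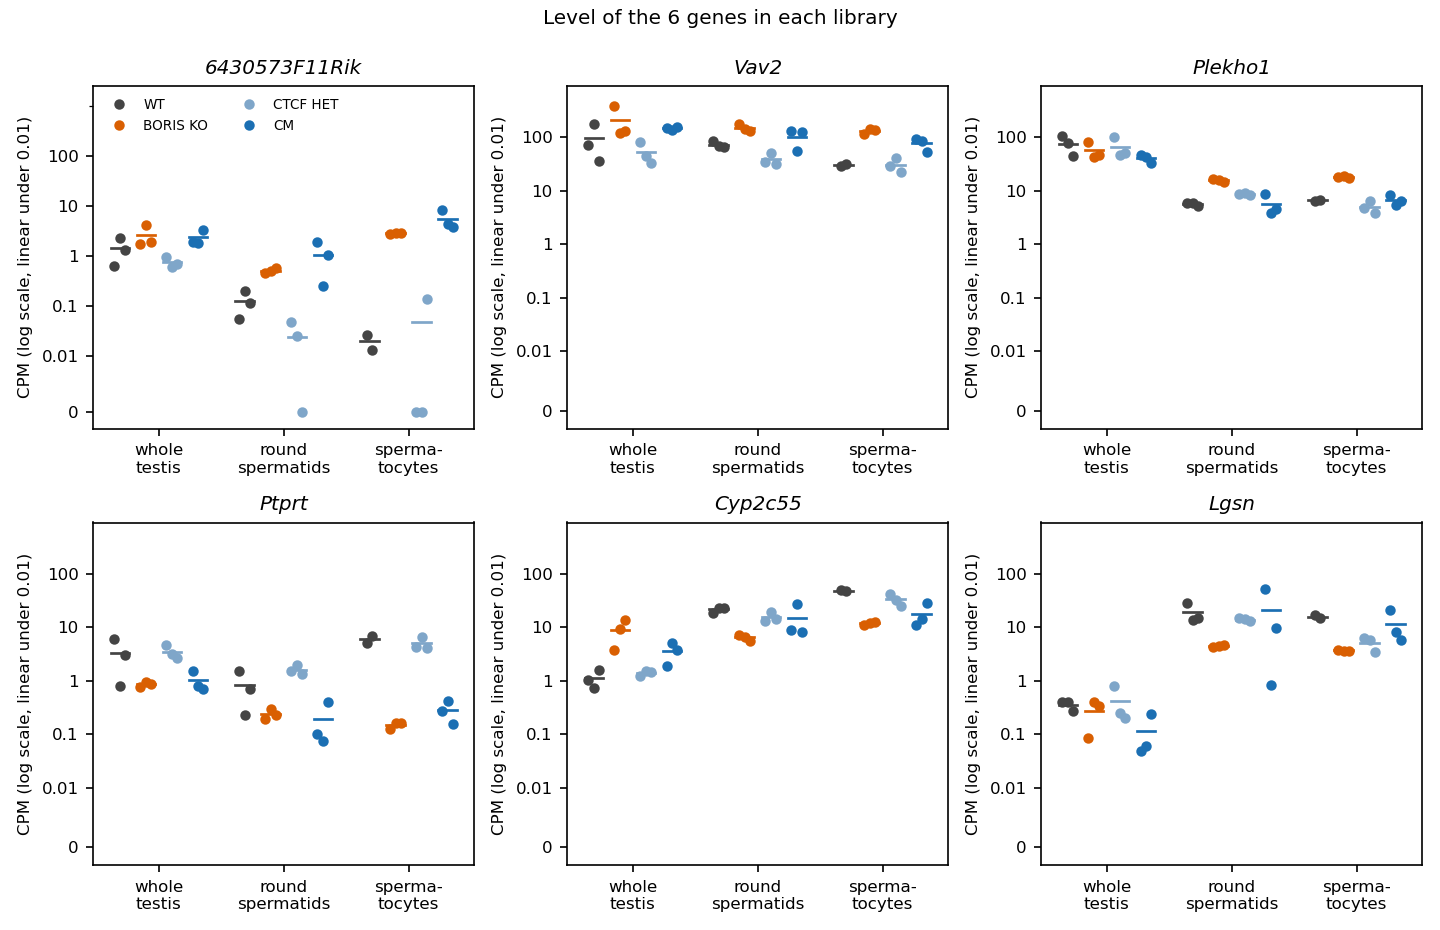
Level of each gene in all 35 libraries, in CPM on a log scale that is linear under 0.01, by preparation and genotype. Points are libraries and short lines are group means, and whole testis was scaled separately from the sorted cells. In spermatocytes, 6430573F11Rik lies between 2.72 and 8.36 CPM in BORIS KO and CM, above all WT and CTCF HET libraries, and Ptprt lies below them.

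Round spermatids are read first, since none of their libraries chose the genes. Whether they came from the same mice as the spermatocytes is not given in the sources used here, so the readout may not be independent. All 6 genes changed in BORIS KO against WT round spermatids in the direction seen in spermatocytes, 3 higher and 3 lower. In this contrast, 26.9% of the 15513 genes tested passed the call, so many genes differed between these groups.

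6430573F11Rik had 5, 10 and 6 counts in WT and 33, 41 and 45 in BORIS KO round spermatids. All KO libraries were above all WT libraries, with a log2 fold change of 2.07 ± 0.53 (edgeR adjusted p = 0.00885). It passed the filter on low counts only through the KO libraries, where it was high, so the call is no support by itself, and the ratio of its counts was 4.72 (2.95 to 7.9, counting error only). Vav2 was at 83.2, 67.6 and 66.1 CPM in WT and 175, 142 and 131 in KO, again with no overlap. It rose by 1.01 ± 0.13 on the log2 scale (edgeR adjusted p = 0.000231), a fold of 2.01 that lies at the fold threshold and fell under it without WT replicate 2 (0.94), WT replicate 3 (0.93) or KO replicate 1 (0.89). Plekho1 was at 5.81, 5.81 and 5.21 CPM in WT and 16.8, 15.5 and 14.4 in KO. It rose by 1.43 ± 0.13 (edgeR adjusted p = 4.35e-05).

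Ptprt was at 1.51, 0.226 and 0.713 CPM in WT round spermatids and 0.194, 0.296 and 0.233 in KO. The groups overlapped, and only 1 of 3 KO libraries lay below all WT libraries. Its log2 fold change was -1.81 ± 0.6 (edgeR adjusted p = 0.029), and the call was lost in 5 of the 6 fits that left out 1 library, all but the one without WT replicate 2. Without WT replicate 1, the highest library, it was -1.01 (edgeR adjusted p = 0.119).

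Cyp2c55 was at 18.7, 23.2 and 22.8 CPM in WT and 7.16, 6.58 and 5.51 in KO round spermatids, with no overlap. Its log2 fold change was -1.79 ± 0.16 (edgeR adjusted p = 3.31e-05). Lgsn was at 28.5, 13.3 and 14.9 CPM in WT and 4.16, 4.44 and 4.67 in KO, also with no overlap, a log2 fold change of -2.13 ± 0.26 (edgeR adjusted p = 0.000175). When all 4 genotypes shared 1 fit, Lgsn (0.096), 6430573F11Rik (0.095) and Ptprt (0.0932) lost the call by edgeR's adjusted p.

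Lgsn overlaps the exons of 4931428L18Rik on the opposite strand, and Cyp2c55 overlaps those of the microRNA gene AC100729.1. Whether counting used strand is not given in the sources used here, so reads of such partners cannot be told apart. 4931428L18Rik, looked up after the values of Lgsn were seen, had 248 to 269 counts in WT and 197 to 293 in KO spermatocytes, and 63 to 88 in WT and 143 to 181 in KO round spermatids. The C330008G21Rik gene inside Ptprt had 0 to 4 counts per library. Reads of Cyp2c55 may also be shared with its close copies in the Cyp2c family.

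By their labels, CM and CTCF HET mice differ by the loss of Boris, with 1 Ctcf allele in each, and none of their libraries chose the genes. In the sorted cells the levels of Ctcf and Ctcfl given above did not follow these labels, so a direction drawn from these groups rests on the labels. In spermatocytes, 2 of the 6 genes passed the call, Ptprt lower and 6430573F11Rik higher, against 0.177% of the 13539 genes tested. 6430573F11Rik had 0, 0 and 7 counts in CTCF HET and 674, 324 and 247 in CM. The groups did not overlap and the ratio of summed counts was 130 (63.1 to 325, counting error only). Its fitted log2 fold change of 6.76 ± 1.15 (edgeR adjusted p = 0.0368) depends on the prior count, because CTCF HET lay near 0. The gene also passed the filter on low counts only through the CM libraries, where it was high, so its call is no support by itself.

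Ptprt was at 4.24, 6.55 and 4.12 CPM in CTCF HET spermatocytes and at 0.273, 0.41 and 0.157 in CM. No CM library reached the lowest CTCF HET library. The log2 fold change was -4.23 ± 0.63 (edgeR adjusted p = 0.0174), 18.8-fold lower in CM. Ptprt passed the filter on low counts only through the CTCF HET libraries, where it was high, so this call too is no support by itself. Both calls were sensitive to the number of libraries, since Ptprt lost it in 4 of 6 fits (without any of the CTCF HET libraries or CM replicate 2, adjusted p 0.0906 to 0.137) and 6430573F11Rik in 5 of 6, all but the one without CM replicate 3 (0.077 to 0.15 by edgeR). Without CTCF HET replicate 3, which held its 7 counts, the fitted value of 6430573F11Rik was 11.47.

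Vav2 was at 29.2, 40 and 22.7 CPM in CTCF HET spermatocytes and 93, 85.2 and 51.8 in CM. The groups did not overlap, but the log2 fold change of 1.23 ± 0.25 did not pass in edgeR (adjusted p = 0.0708), while DESeq2 gave 1.19 with an adjusted p of 0.000879. Cyp2c55 was at 41.5, 32.4 and 24.8 against 11, 14.3 and 27.9 CPM, with overlap (-1.01 ± 0.32, edgeR adjusted p = 0.183). Without CM replicate 3 both passed, Vav2 at an adjusted p of 0.0161 and Cyp2c55 at -1.46 with 0.0354. Plekho1 (0.35 ± 0.35, edgeR adjusted p = 0.794) and Lgsn (1.06 ± 0.46, edgeR adjusted p = 0.309) were not called. Lgsn was at 6.31, 5.68 and 3.36 CPM in CTCF HET and at 20.6, 8.11 and 5.74 in CM, so its values in CM lay mostly above CTCF HET. The CTCF HET spermatocyte libraries detected 12018 to 13406 genes and the CM ones 14145 to 16666, and the part of this in the 6 values was not tested. Among the Sertoli and Leydig markers, Sox9, Gata4, Cyp11a1, Hsd3b1 and Insl3 had 0 counts in all CTCF HET spermatocyte libraries. The Leydig markers together still summed to 7.52 to 10.3 CPM there, against 9.63 to 10.4 in WT and 9.86 to 12.3 in CM spermatocytes. The Sertoli markers summed to 2.85 to 6.85, against 9.01 to 9.08 in WT and 5.25 to 8.11 in CM.

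The CM and CTCF HET spermatocytes are set beside WT without a test, because those 2 WT libraries chose the genes. On the fitted log2 scale CM differed from WT by 7.99 for 6430573F11Rik, 1.36 for Vav2, 0.01 for Plekho1, -4.38 for Ptprt, -1.45 for Cyp2c55 and -0.45 for Lgsn. CTCF HET differed from WT by 0.15 for Vav2, -0.31 for Plekho1, -0.13 for Ptprt, -0.42 for Cyp2c55 and -1.49 for Lgsn, and 6430573F11Rik had too few counts. Lgsn was the gene with the largest fitted difference in CTCF HET of the 5.

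In round spermatids, CM against CTCF HET gave no call for any of the 6 genes or for any gene in edgeR (0% of 15337). At an unadjusted p under 0.05 edgeR had 3332 genes, among them 3 of the 6, and DESeq2 called 1276 genes, among them 2 of the 6. 6430573F11Rik had 4, 2 and 0 counts in CTCF HET and 151, 21 and 71 in CM, a ratio of 36.5 (16.5 to 100, counting error only). Ptprt was at 1.54, 1.92 and 1.32 CPM against 0.0995, 0.0735 and 0.398, and Vav2 at 34.1, 49.5 and 31.5 against 128, 55 and 123. For these 3 genes the groups did not overlap, with log2 fold changes of 5.25 ± 1.26, -3.04 ± 0.8 and 1.43 ± 0.34 and an edgeR adjusted p of 0.203 each. The share of all genes whose groups did not overlap was not counted, so nothing is read from this.

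Leaving out CM replicate 1 or 2 moved these values. Replicate 1 stood apart in its Ctcf level. Replicate 2 had the larger chi-square per degree of freedom on raw counts, 629 and 441 against the others, which differed by 202. This measure weighs genes with many counts most. Without replicate 2, Cyp2c55 was -0.81 (edgeR adjusted p = 0.184) and Vav2 1.76 (0.169), and no gene was called. Lgsn was at 51.3, 0.833 and 9.76 CPM in the 3 CM round spermatid libraries, and 14.6, 14 and 12.9 in CTCF HET. Without replicate 1 edgeR called 2670 genes, and Plekho1 was then -1.01 (adjusted p = 0.0477), 6430573F11Rik 4.55 (0.0548), Ptprt -2.74 (0.0686) and Vav2 1.23 (0.0688), with Lgsn at -1.38 (0.329). With it, Plekho1 was -0.57 ± 0.36 (edgeR adjusted p = 0.38), Cyp2c55 -0.05 ± 0.49 (0.967) and Lgsn 0.59 ± 1.07 (0.778). Summed spermatogonia markers were at 33.8 to 349 CPM in the CM round spermatid libraries and 20.3 to 27.6 in CTCF HET, and their part in these values was not tested.

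**Figure D3:**
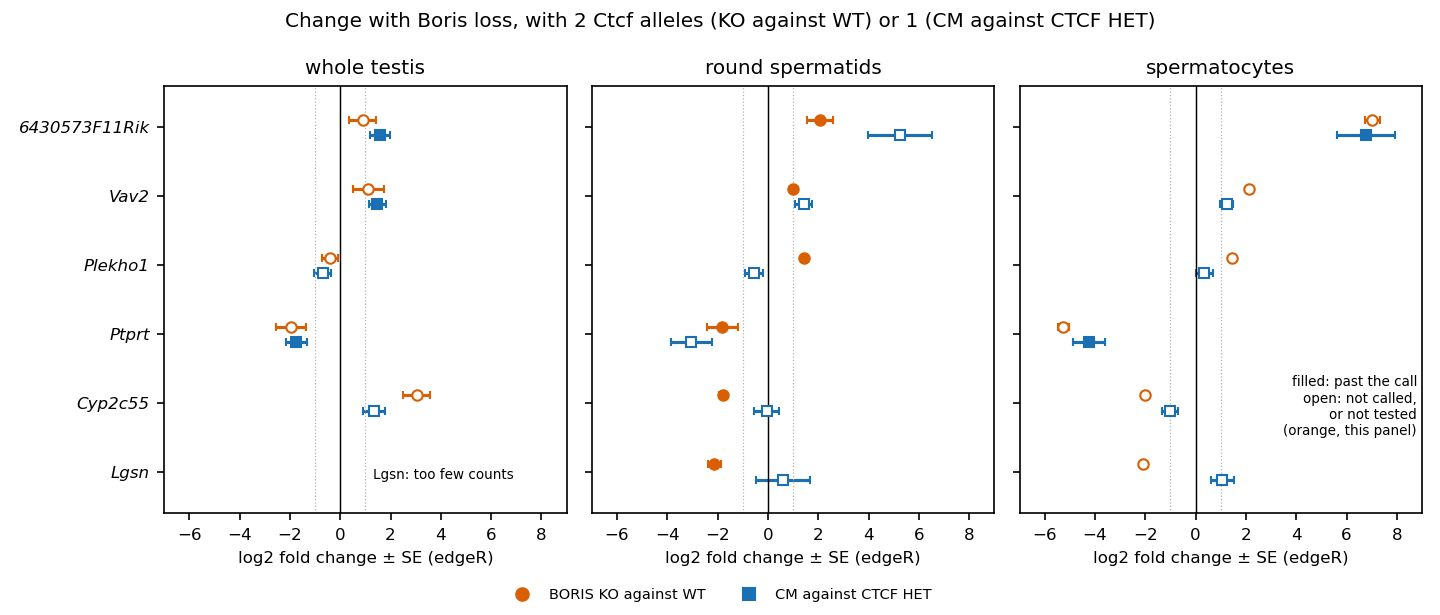
Log2 fold change ± SE from edgeR for Boris loss with 2 Ctcf alleles (BORIS KO against WT, circles) and with 1 (CM against CTCF HET, squares) in each preparation, with dotted lines at a fold change of 2. Filled symbols passed the call, and the circles for spermatocytes, which chose the genes, were not tested. 6430573F11Rik and Vav2 lie to the right and Ptprt to the left of 0 in all 3 preparations, while Cyp2c55 lies to the right in whole testis (3.04 in BORIS KO) and to the left in sorted BORIS KO cells (-1.79 in round spermatids).

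In whole testis none of the 5 genes that could be tested passed the call in BORIS KO against WT, where 0.0551% of 16344 genes did. Lgsn had 1 to 19 counts in every testis library and was not tested there. At an unadjusted p under 0.05 edgeR had 2717 genes, 2 of the 5 among them, and DESeq2 called 225, with 2 of the 5. Cyp2c55 was at 1.02, 0.729 and 1.6 CPM in WT testis and 3.69, 9.31 and 13.5 in BORIS KO. All 3 KO libraries lay above all WT libraries, with a log2 fold change of 3.04 ± 0.53 (edgeR adjusted p = 0.14), 2.98 by DESeq2 (adjusted p = 1.65e-06). With the replicate number as a block, the value was 2.78 and passed (edgeR adjusted p = 0.00451), and the block moved the count of genes called from 9 to 273.

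Ptprt was at 6.11, 0.795 and 3.02 CPM in WT testis and 0.773, 0.963 and 0.881 in BORIS KO. The groups overlapped (-1.96 ± 0.61, edgeR adjusted p = 0.216, 0.0492 by DESeq2). Vav2 was at 70.8, 179 and 35.2 against 373, 117 and 130 CPM, with overlap (1.12 ± 0.61, edgeR adjusted p = 0.379). Plekho1 (-0.4 ± 0.32, edgeR adjusted p = 0.534) and 6430573F11Rik (0.89 ± 0.54, edgeR adjusted p = 0.426) were also not called.

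In CM against CTCF HET testis 3 of 5 genes passed, Vav2 and 6430573F11Rik higher and Ptprt lower, against 14.3% of 16531 genes. Vav2 was at 80.1, 44.2 and 33 CPM in CTCF HET and at 149, 137 and 157 in CM, with no overlap. It rose by 1.48 ± 0.34 on the log2 scale (edgeR adjusted p = 0.0266). 6430573F11Rik was at 0.95, 0.611 and 0.711 against 1.91, 1.83 and 3.38 CPM, again with no overlap. It rose by 1.58 ± 0.41 (edgeR adjusted p = 0.0368). It passed the filter on low counts only through the CM libraries, where it was high, so this call is no support by itself. Ptprt was at 4.63, 3.17 and 2.64 against 1.52, 0.793 and 0.708 CPM, and no CM library reached the lowest CTCF HET library (-1.75 ± 0.42, edgeR adjusted p = 0.0296).

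Cyp2c55 was at 1.2, 1.53 and 1.42 CPM in CTCF HET testis and 1.89, 5.12 and 3.7 in CM. The groups did not overlap and the value was 1.35 ± 0.44 (edgeR adjusted p = 0.0635), or 1.23 with the replicate block, which passed (0.0104). The block moved the count of genes called from 2361 to 3911. Plekho1 was not called (-0.69 ± 0.34, edgeR adjusted p = 0.176). The 3 calls were lost without CTCF HET replicate 2 or 3 or CM replicate 3 (adjusted p 0.0735 to 0.137 by edgeR). Without CTCF HET replicate 1, Ptprt (0.0726) and 6430573F11Rik (0.0626) were lost too, and without CM replicate 2 Ptprt (0.0529). Vav2 was lost with all groups in 1 fit (0.0609 by edgeR). The genes called over the whole table also fell, from 2361 to 0 without CTCF HET replicate 2, 8 without CTCF HET replicate 3, 2 without CM replicate 3 and 915 without CTCF HET replicate 1.

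Summed cell type markers in the testis libraries differed between the genotypes. Such sums cannot tell the number of cells from the RNA per cell. Summed Leydig cell markers lay at 353 to 511 CPM for WT, 430 to 708 for CTCF HET, 624 to 1400 for BORIS KO and 1730 to 3420 for CM. In the same order, Sertoli cell markers (5 of 6 in the table) lay at 207 to 308, 245 to 348, 393 to 443 and 520 to 1040, and round spermatid markers at 12300 to 20000, 11900 to 24500, 11400 to 21900 and 3650 to 11300. Spermatogonia markers, which include Kit, lay at 31.1 to 51.2 in WT and 95.8 to 386 in CM. The paper reports Kit protein also in CM spermatocytes and round spermatids, so this sum need not reflect spermatogonia alone. Macrophage markers lay at 52.7 to 106 in WT and 154 to 338 in CM. Myoid markers went the other way, over the 4 genotypes at 324 to 347, 287 to 329, 167 to 193 and 75.6 to 117. The part of this in the testis values of Cyp2c55, Vav2, Ptprt and 6430573F11Rik was not tested. In the sorted libraries the Leydig markers summed to 0.945 to 12.3 CPM and the Sertoli markers to 0.605 to 14.

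Against WT, CM testis had 1 of 5 genes called, where 21.2% of 16378 genes were. Cyp2c55 rose by 1.67 ± 0.48 (edgeR adjusted p = 0.0349), with all 3 CM libraries above all WT libraries, and this call was lost in 5 of 6 fits that left out a library, all but the one without CM replicate 1 (0.011). The 3468 genes called over the whole table fell to 11 without WT replicate 2, 3 without WT replicate 3, 4 without CM replicate 3 and 1814 without WT replicate 1. Plekho1 (-0.9 ± 0.32, edgeR adjusted p = 0.0671) and Ptprt (-1.69 ± 0.65, edgeR adjusted p = 0.0848) missed the threshold, and Ptprt passed with the replicate block (-1.53, edgeR adjusted p = 0.0157). Vav2 was at 0.62 (adjusted p = 0.363) and 6430573F11Rik at 0.74 (0.295) in edgeR.

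In round spermatids, CM against WT gave 0 of 6 calls, where 0.00654% of 15298 genes passed. At an unadjusted p under 0.05 edgeR had 3136 genes, 1 of the 6 among them, and DESeq2 called 1398, with 1 of the 6. It was 6430573F11Rik in both, at 3.1 ± 1.07 (edgeR adjusted p = 0.182). The others ran from -2.04 ± 1.14 for Ptprt (0.358) to 0.53 for Vav2 (0.352).

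Loss of 1 Ctcf allele alone gave no call among the 6 genes. In testis, CTCF HET against WT called 0 of 5 genes against 0.00621% of 16097, with 0 of the 5 at an unadjusted p under 0.05 in edgeR and 0 by DESeq2. Over all genes, edgeR had 424 at such a p, and DESeq2 called 3. The 5 values ran from -0.87 for Vav2 to 0.33 for Cyp2c55. In round spermatids 0 of 5 were called against 5.39% of 15238, with 3 at an unadjusted p under 0.05 in edgeR and 0 by DESeq2. Over all genes, edgeR had 5824 at such a p there, and DESeq2 called 912.

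There Vav2 was at 34.1, 49.5 and 31.5 CPM in CTCF HET against 66.1 to 83.2 in WT, and Plekho1 at 8.74, 8.85 and 8.12 against 5.21 to 5.81. Neither gene's groups overlapped. Vav2 (-0.94 ± 0.18, edgeR adjusted p = 0.00964) and Plekho1 (0.59 ± 0.14, edgeR adjusted p = 0.0191) passed the adjusted p but not the fold threshold, and without CTCF HET replicate 2 Vav2 passed both (-1.17, edgeR adjusted p = 0.01). Ptprt was at 0.91 (0.223), and passed without WT replicate 1 (1.71, edgeR adjusted p = 0.00872). Cyp2c55 (-0.5, 0.0689) and Lgsn (-0.47, 0.194) were not called by edgeR, and 6430573F11Rik had too few counts.

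The stages were compared within CTCF HET and within CM. Between round spermatids and spermatocytes of CTCF HET mice, 3 of 5 genes passed the call, against 38.6% of 14632 genes, whose median log2 fold change was 0.27. Lgsn rose by 1.4 ± 0.26 in round spermatids (edgeR adjusted p = 0.00452), a call lost with all groups in 1 fit (1.44, 0.107), and Ptprt fell (-1.68 ± 0.34, edgeR adjusted p = 0.00602). Cyp2c55 also fell (-1.12 ± 0.24, edgeR adjusted p = 0.00823), but was under a fold of 2 without round spermatid replicate 1 (-0.97) or spermatocyte replicate 1 (-0.91). Plekho1 passed the adjusted p alone (0.77 ± 0.24, edgeR adjusted p = 0.0342) and Vav2 was at 0.29 (0.407).

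In CM none of the 6 genes differed by the call between the stages, against 24.6% of 15037 genes. By edgeR 6012 genes, 1 of the 6 among them, had an unadjusted p under 0.05, and DESeq2 called 4782, with 1 of the 6. 6430573F11Rik had the largest value, -2.33 ± 0.75 (edgeR adjusted p = 0.0515), and the others ran from -0.49 to 0.89. In CM its 3 spermatocyte libraries were at 8.36, 4.43 and 3.87 CPM and its round spermatid mean was 1.06 ± 0.81 (SD, n = 3).

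Whether Boris loss acted differently with 1 Ctcf allele than with 2 was tested by the difference of the log2 fold changes, called at an adjusted p of 0.05 alone. In round spermatids this passed for 2 of 6 genes, against 37.4% of 16200 genes. For Plekho1 the difference was -2.05 ± 0.38 (edgeR adjusted p = 0.0019), since it rose in BORIS KO (1.43) and was at -0.57 in CM against CTCF HET. This passed in every fit that left out 1 library.

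For Cyp2c55 the difference was 1.7 ± 0.55 (edgeR adjusted p = 0.0286), from -1.79 against -0.05. It was lost in 7 of 12 fits that left out a library, none of them by leaving out a CM library, and without CM replicate 2, the highest CM library, it was 0.94 (0.0149). 6430573F11Rik (3.17 ± 1.27, edgeR adjusted p = 0.0681), Lgsn (2.69 ± 1.24, 0.107), Ptprt (-1.28, 0.367) and Vav2 (0.38, 0.479) did not pass. These tests rest on libraries labelled CM in which Ctcf was not lower. In testis 0 of 5 passed, against 0% of 17185 genes, with Cyp2c55 at -1.65 ± 0.7 (edgeR adjusted p = 0.48) and the others from -0.26 to 0.72. At an unadjusted p under 0.05 edgeR had 1713 genes there, 1 of the 5 among them, and DESeq2 called 38, with 0 of the 5.

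Relatives and partners of the 6 genes, 44 genes in 6 lists, were counted together beside them. In BORIS KO against WT round spermatids 8 of 33 tested list genes passed, 6 higher and 2 lower, where 26.9% of all genes did. Among 7 relatives and partners of Plekho1, the partner Akt1 (1.33) and the relative Plekho2 (1.27) rose. Of 4 tested Cyp2c genes, Cyp2c29 fell (-2 ± 0.24, edgeR adjusted p = 0.000153), and of 7 tested genes for the wobble uridine of tRNA, Ctu2 (1.24) and Trmt112 (1.13) rose. By edgeR 0 of 7 phosphatase relatives and partners of Ptprt passed, with 4 at an unadjusted p under 0.05, as were 9418 of all 15513 genes. Glul, the glutamine synthetase itself, did not pass.

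In CM against CTCF HET testis 5 of 32 list genes passed, where 14.3% of all genes did. Stat3, a substrate of Ptprt, rose (1.2 ± 0.31, edgeR adjusted p = 0.0351), and Plekho2 fell (-1.49 ± 0.31, 0.0248). In CM against CTCF HET, 0 of 33 list genes passed in round spermatids and 0 of 30 in spermatocytes by edgeR, with 8 and 4 at an unadjusted p under 0.05. Over all genes 3332 of 15337 and 1976 of 13539 had such a p. In BORIS KO testis 0 of 32 passed and 7 had such a p, as did 2717 of all 16344 genes. In the other comparisons the list genes called numbered 7 of 32 in CM against WT testis (21.2% of all genes), 2 of 33 in CTCF HET against WT round spermatids (5.39%), 14 of 32 and 6 of 33 between stages in CTCF HET (38.6%) and CM (24.6%), and 16 of 34 for the round spermatid difference between Ctcf genotypes (37.4%).

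Of 19 annotated genes within 100 kb of the 6, 13 were tested in BORIS KO round spermatids and 2 passed, where 26.9% of all genes did. Dlc1, 53431 bp from 6430573F11Rik, rose there (1.39 ± 0.49, edgeR adjusted p = 0.038) and in CM against CTCF HET testis (1.43 ± 0.36, 0.0334), as its neighbour did. Anp32e, next to Plekho1, fell in BORIS KO round spermatids (-1.17 ± 0.31, edgeR adjusted p = 0.0115), where Plekho1 rose. Sardh, 13767 bp from Vav2, rose in CM against CTCF HET testis (1.16 ± 0.32, edgeR adjusted p = 0.0425). In CM against WT testis 4 of 14 passed, where 21.2% of all genes did. Sardh (2.46), Aph1a near Plekho1 (1.84) and Dlc1 (1.64) rose there, and Cyp2c65, 18322 bp from Cyp2c55, fell (-1.52 ± 0.45, edgeR adjusted p = 0.0394) where Cyp2c55 rose. From spermatocytes to round spermatids, Tbc1d12 near Cyp2c55 and 4930521A18Rik near Lgsn fell in CTCF HET (-1.57 and -2.78) and in CM (-1.77 and -3.07), and for the round spermatid difference Hells near Cyp2c55 (3.45) and Anp32e (3.78) passed.

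Finally, each gene was set beside the genes whose levels followed it most closely over the libraries, by Pearson r of log2 CPM after subtracting the mean of each preparation. This is a description over libraries that share genotype and depth. Plekho1 was closest to Heatr7a (r = 0.928 over 35 libraries, 15920 genes compared) and Nat9 (0.927). Lgsn was closest to Cep120 (0.892, over 23 libraries) and Iqch (0.889), and 6430573F11Rik to 2010011I20Rik (0.819) and Ect2l (0.817). Vav2 was closest to AI854517 (0.807) and Col5a1 (0.763), and Ptprt to H2afy3 (0.768) and Mttp (0.763). Cyp2c55 had the least close partners of the 6, Grtp1 (0.692) and Celf4 (0.692).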

How the data were processed

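The sources of the values were as follows. Whole-testis RNA was depleted of ribosomal RNA, sequenced single-end on an Ion Proton and aligned with TopHat2 and then Bowtie2, and sorted-cell RNA was selected for poly(A), sequenced single-end on a HiSeq2000 and aligned with STAR. Counts of reads for each gene were deposited by the authors without normalization, 1 table for testis and 1 for sorted cells. The counting tool, annotation and strand setting are not given in the sources used here. The authors deposited CTCF and BORIS peaks on mm9 with a height, a signal whose scaling is not stated, and a summit position (other), and Pol2 and H3K4me3 peaks with a MACS score. Peaks were compared by overlap from 1 bp, within 2 kb of a gene (10 kb as an alternative). Promoter and peak sequences, gene coordinates and exon lengths came from the mm9 sequence and GENCODE vM1, with 21709 of 23284 symbols matched.

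The genes, lists and tests were chosen with earlier results of these data known. Libraries of the groups compared were fitted in R 4.3.3 with edgeR 4.0.16 (limma 3.58.1): TMM scaling, filterByExpr with at least 10 counts and 15 in all, the quasi-likelihood F test with robust dispersion, and Benjamini-Hochberg adjustment over all genes tested. The call was an adjusted p under 0.05 and a fold change over 2, or the adjusted p alone for the difference between Ctcf genotypes. CPM used the same scaling within each table, so levels are not compared between testis and sorted cells. DESeq2 1.42.0, RLE scaling, no filter, a replicate block, all groups in 1 fit, a stricter threshold and leaving out each library were alternatives. The scripts were tested on simulated data.

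Whole-testis libraries with the same replicate number deviated together (18 of 18 pairs correlated over 0.1, 0.12 to 0.63), so the replicate block is given beside those results where it changed a call. Replicate pairs differed beyond counting noise in every group (chi-square per degree of freedom 7.22 to 629). Named were the 6 genes, Ctcf and Ctcfl, neighbours within 100 kb that passed, list genes that passed in BORIS KO round spermatids or CM against CTCF HET testis (those of other comparisons are counted only, a choice made after the values were seen), and the genes most like each by r. ChIP inputs and the spermatocyte CTCF ChIP were not used here. The count ratios of 6430573F11Rik and the counts of overlapping genes were added after the values were seen. The genes of 1 list and the sequence of 1 peak are not reported here.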

Additional observations from a re-analysis of the deposited data

Results flagged for a closer look

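In round spermatids the change with Boris loss differed between the Ctcf genotypes for 2 of the 6 genes, by a test of the difference itself that 37.4% of 16200 genes passed. Plekho1 differed by -2.05 ± 0.38 on the log2 scale (edgeR adjusted p = 0.0019) and Cyp2c55 by 1.7 ± 0.55 (edgeR adjusted p = 0.0286), and the latter was lost in 7 of 12 fits that left out 1 library.

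For Cyp2c55 the BORIS KO libraries lay on opposite sides of WT in whole testis and in sorted cells. All 3 BORIS KO testis libraries lay above all WT testis libraries (log2 fold change 3.04, not called, edgeR adjusted p = 0.14), while all 3 BORIS KO round spermatid libraries lay below WT (-1.79), as did those of the spermatocytes (-2.01). CM testis libraries all lay above WT (1.67) and CM spermatocytes all below (-1.45), while 1 of the 3 CM round spermatid libraries lay above WT and 2 below (-0.49, not called, edgeR adjusted p = 0.637). These differences between preparations were not tested, and the spermatocyte values rest on the WT libraries that chose the gene. Plekho1 in CTCF HET lay above WT in all round spermatid libraries (0.59) and below WT in all spermatocyte libraries (-0.31), which also rests on those WT libraries and was not tested.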

How the results depend on the processing

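Called changes kept their direction under every alternative run. Of 17 called changes of the 6 genes, 77 of 83 values under other settings also passed and 6 did not, and 71 of 114 passed when 1 library was left out and 43 did not. Of 54 changes not called, 25 of 261 values under other settings passed and 6 changed sign, and with 1 library left out 13 of 378 passed and 21 changed sign. The depth limits 6430573F11Rik, Lgsn in testis and Ptprt, of which some libraries held under 10 counts. The cause was not tested for any change below.

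The number of the 6 genes called changed as follows. In BORIS KO testis it was 2 with DESeq2 and 1 with the replicate block, against 0. In BORIS KO round spermatids it was 3 with all groups in 1 fit, against 6. CM against CTCF HET gave 2 with DESeq2 and 3 with all groups in 1 fit in round spermatids, against 0, and 4 with all groups in 1 fit in spermatocytes, against 2. CM against WT testis gave 2 with DESeq2, the block or all groups, and round spermatids 1 with DESeq2 or all groups. Round spermatids against spermatocytes in CM gave 1 with DESeq2, no filter, the block or all groups. At an adjusted p under 0.001 it was 4 in BORIS KO round spermatids, against 6. Under that threshold it was 0 in CM against CTCF HET testis and spermatocytes, CM against WT testis, round spermatids against spermatocytes in CTCF HET, and the round spermatid difference. Of the 35 peaks at the loci, 12 were in the upper 50% of heights of their list.

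With each library left out in turn, the number called ranged from 0 to 1 in BORIS KO testis, 4 to 5 in BORIS KO round spermatids, 0 to 4 in CM against CTCF HET testis and spermatocytes, 0 to 1 in their round spermatids, 0 to 1 in CM against WT testis, 0 to 0 in CM against WT round spermatids and CTCF HET against WT testis, 0 to 1 in CTCF HET against WT round spermatids, 2 to 4 and 0 to 1 between stages in CTCF HET and CM, and 0 to 0 in testis and 1 to 5 in round spermatids for the difference between Ctcf genotypes.

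Sign changes were seen only for values not called. In CM against CTCF HET round spermatids Cyp2c55 was 0.02 with RLE scaling and 0.02 with DESeq2. With the replicate block, Lgsn was -0.68 there, -1.04 in CM against WT round spermatids and -0.09 between stages in CM, and Plekho1 was -0.03 in CM against WT round spermatids. With 1 library left out, Cyp2c55 ranged from -0.81 to 0.23 and Lgsn from -1.38 to 1.18 in CM against CTCF HET round spermatids, Plekho1 from -0.33 to 0.24 and Lgsn from -1.77 to 0.69 in CM against WT round spermatids, and Plekho1 from -0.63 to 0.04 and Ptprt from -0.39 to 0.88 in CTCF HET against WT testis. Between stages in CM the ranges were -0.61 to 0.02 for Plekho1, -1.02 to 0.25 for Cyp2c55 and -1.05 to 1.59 for Lgsn, and for the difference in testis -0.47 to 1.11 for Vav2, -0.56 to 0.18 for Plekho1 and -0.62 to 0.7 for Ptprt.

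Over all genes, the count called moved by more than 1.5 times in these fits. The block gave 273 genes in BORIS KO testis (9 without it), 3911 in CM against CTCF HET testis (2361), 18 in CTCF HET testis (1), 41 in CM against CTCF HET spermatocytes (24) and 4 for the testis difference (0). DESeq2 gave 225 in BORIS KO testis, 1276 in CM against CTCF HET round spermatids (0) and 171 in their spermatocytes, 1398 in CM against WT round spermatids (1), 3 in CTCF HET testis and 38 for the testis difference. All groups in 1 fit gave 1615 and 610 in CM against CTCF HET round spermatids and spermatocytes, 1987 in CM against WT round spermatids, 234 in CTCF HET round spermatids (821) and 6468 between stages in CM (3702). No filter gave 20 in BORIS KO testis and 73 in CM against CTCF HET spermatocytes. An adjusted p under 0.001 left 2404 genes in BORIS KO round spermatids (4173), 1 in CTCF HET round spermatids, 2254 and 120 between stages in CTCF HET (5641) and CM, 773 for the round spermatid difference (6060), and 0 in BORIS KO testis, CM against CTCF HET testis and spermatocytes, and CM against WT testis (3468) and round spermatids. With 1 library left out the count ranged from 0 to 44 in BORIS KO testis, 0 to 3513 in CM against CTCF HET testis, 1 to 30 in their spermatocytes, 0 to 2670 in their round spermatids, 3 to 4383 in CM against WT testis, 0 to 811 in CM against WT round spermatids, 354 to 2041 in CTCF HET round spermatids and 2367 to 4398 between stages in CM. In sorted cells same-numbered libraries did not deviate together (4 of 18 pairs over 0.1 in round spermatids, 1 of 15 in spermatocytes), so there the pairing is a number only, and the block ended 1 call, Ptprt in BORIS KO round spermatids (-1.52, edgeR adjusted p = 0.0551).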
